A study of Mus musculus with 16 samples.

Results

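Proximal and distal colon organoids that carried a Cdx2 guide were compared after culture without Wnt factors. The libraries were picked by their titles, which give the region of the colon, the guide and the medium, and they were 4 of the 16 libraries of the series: 2 of proximal and 2 of distal Cdx2-sgRNA organoids, all in WENR-minus medium. Organoids came from 2 female mice of 8 weeks that were heterozygous for a Cre-inducible Braf allele and for a tdTomato reporter, both shared by every group, and no Cre step is described for these libraries. Cas9 and a guide were delivered by lentivirus, either a guide against Cdx2 or a control guide (Scramble-sgRNA). WENR-plus medium holds Wnt3a, EGF, Noggin and R-spondin 1, and WENR-minus medium holds none of these. In the fourth month after isolation, cultures had 2 days with WENR-plus medium followed by 3 days with WENR-minus medium, or by 3 more days with WENR-plus medium for the libraries used for comparison.

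Each Cdx2-sgRNA culture grew out of 1 cell with frameshifts in Cdx2, so a library is 1 clone, and the WENR-plus library of the same region and replicate number was taken as the same clone. Scramble-sgRNA cultures had no such cloning step in the methods. With 1 clone per region and replicate number, p-values measure the spread between replicate libraries, pooled over the 8 groups of the series, and a clone cannot be told apart from its mouse.

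Colon epithelium is renewed from crypt base stem cells, which divide under Wnt signals and give rise to absorptive colonocytes, mucus-secreting goblet cells and hormone-secreting enteroendocrine cells. CDX2 and its paralog CDX1 are homeobox transcription factors that keep intestinal genes active, often together with HNF4A. Hox genes, which lie in clusters, record the position of a tissue along the body axis, and the highest-numbered ones mark the hindgut.

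The guide is shown here because it sets what the Cdx2 values can show. Its target with the PAM in capitals, read along the Cdx2 transcript, was agcggcgaaacctgtgcgagTGG at chr5:147306482-147306504 of GRCm38 on the minus strand. The site lies in coding sequence of exon 1 of 3, and the cut falls at codon 166 of 311. The values of Cdx2 below are RNA and not protein. Whether the edited transcript is less stable was not tested.

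Total counts were 12465194 and 16840209 in the proximal and 16961962 and 18339036 in the distal libraries, of which mitochondrial ribosomal RNA took 20.5 to 27.1%. Levels are given as scaled CPM, the usual CPM with each library total multiplied by its TMM factor, always for biological replicate 1 and then 2 of the titles. The titles do not say whether a replicate number stands for the same mouse in both regions. TMM factors were 1.08 and 1.13 for the proximal and 0.70 and 0.656 for the distal libraries, and this scaling enters every value below. On the first principal component of the 500 most variable genes (57.1% of the variance over 16 libraries), the proximal Cdx2-sgRNA libraries of both media stood apart from the other 12 libraries. The proximal clones differed from each other on 2 chromosomes. In replicate 2 against replicate 1, genes of chromosome 4 had a median log2 difference of -0.409 without and -0.413 with Wnt factors, and genes of chromosome 13 one of -0.384 and -0.371, against -0.126 to 0.0177 on the other chromosomes in WENR-minus medium. Copy number was not measured. Of genes over 10 CPM on these chromosomes 36.6% and 37.5% were called in the main comparison, against 30.4 to 38% on the others. The median log2 fold change of the main comparison was -0.399 on chromosome 4 and -0.122 on chromosome 13, against -0.251 to 0.0971 on the others.

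Calls required an adjusted p under 0.05 (edgeR quasi-likelihood test, Benjamini-Hochberg adjustment) together with an absolute log2 fold change over 1. Of 15289 genes tested, 5291 (34.6%) were called between the regions when Cdx2-sgRNA organoids lacked Wnt factors, 2761 (18.1%) higher and 2530 (16.5%) lower in proximal organoids. Of the called genes, 1010 had at most 3 reads in each library of 1 group, and for these a bound (at least so many fold, with 3 reads per library as the level of that group) replaces the fitted fold change. Among the called genes without such a group, 146 were lower and 34 higher in proximal organoids beyond 64-fold (112 and 53 with library totals in place of TMM scaling), and 901 and 864 beyond 4-fold (538 and 1963). Over all genes tested the median log2 fold change was 0.13, which is the background for the list medians below. The shares of 18.1% higher and 16.5% lower are the background for the list counts. Scaling bore on the balance of the directions: with library totals in place of TMM scaling the median over all genes was 0.84, and 5536 genes were called higher and 1510 lower. Of the genes named below as higher or lower, Erbb3, Ahnak and mt-Co1 were not called with library totals, and no called gene changed sign.

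**Figure D1:**
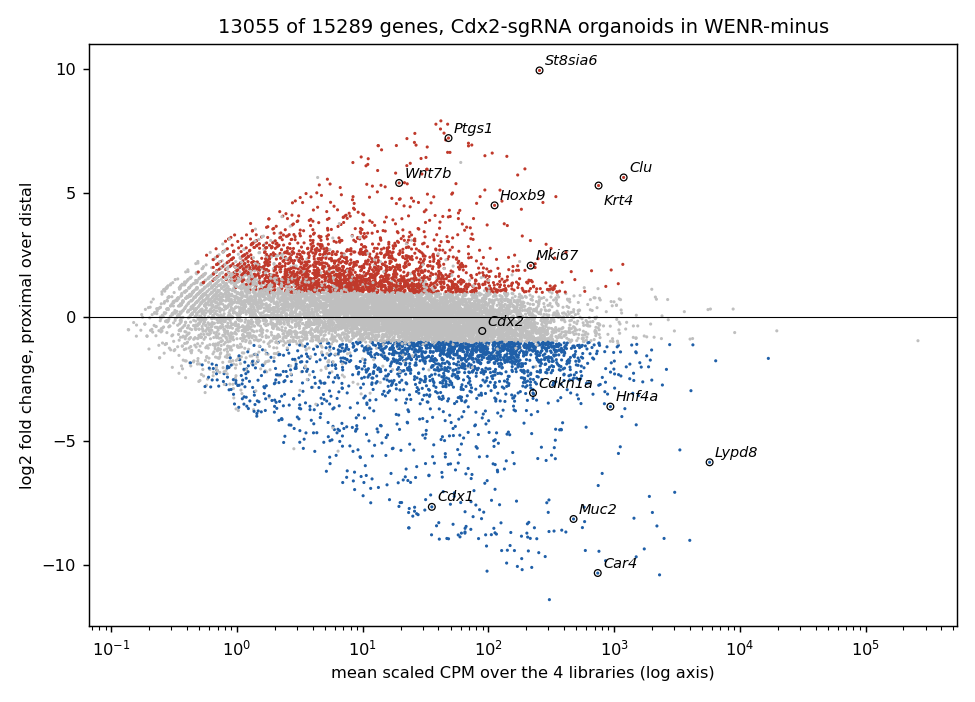
Mean scaled CPM over the 4 libraries (log axis) against the log2 fold change of proximal over distal Cdx2-sgRNA libraries without Wnt factors, for the 13055 genes without a group at 3 reads or fewer. Red points were called higher and blue points lower in proximal organoids, and more blue than red points lie beyond 6 on the log2 scale, with Car4 at -10.32 and St8sia6 at 9.96.

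Cdx2 RNA was present in all 4 libraries. Its level was 73.9 and 71 CPM in proximal and 126 and 86.1 CPM in distal organoids, and the log2 fold change of -0.55 (SE 0.20, adjusted p = 0.0378) did not reach the fold threshold. This value was 0.15 with library totals in place of TMM scaling and -0.25 without the distal library of replicate 1. In Scramble-sgRNA organoids the order of the TMM-scaled levels was the other way, with 203 and 151 CPM in proximal and 112 and 110.0 CPM in distal libraries. The region difference was lower in Cdx2-sgRNA than in Scramble-sgRNA organoids by -1.22 (SE 0.28, adjusted p = 0.0132). Cdx1 divided the regions far more sharply. Its level was 0.52 and 0.212 CPM in proximal and 70.7 and 70.5 CPM in distal Cdx2-sgRNA organoids, which the test put at -7.65 on the log2 scale (SE 0.32, adjusted p = 7.08e-08). Scramble-sgRNA organoids held 102 and 114 CPM in proximal and 112 and 99.3 CPM in distal libraries. The proximal Cdx2-sgRNA libraries were thus low in Cdx1 RNA beside every other group shown. Cdx4, the third member of the family, had no reads in the 4 libraries.

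Of 23 intestinal transcription factors tested, 14 were lower and 1 was higher in proximal organoids, with a median log2 fold change of -2.06. None was called higher without the distal library of replicate 1, without the proximal library of replicate 2 or with length-scaled counts, and 3 were with library totals. Vdr, the vitamin D receptor, stood at 2.0 and 1.96 CPM in proximal and 637 and 890.5 CPM in distal organoids (log2 fold change -8.59, SE 0.52, adjusted p = 5.75e-07). Hnf4a, a nuclear receptor that drives enterocyte genes, stood at 155 and 129 CPM against 1699.6 and 1750.0 CPM (log2 fold change -3.60, SE 0.32, adjusted p = 7.96e-06). In both genes every proximal library lay far under every distal one, and the proximal libraries also lay under the Scramble-sgRNA proximal libraries, where Vdr was at 241 and 229.7 CPM and Hnf4a at 916 and 763 CPM. The homeobox gene Isx, which curbs vitamin A uptake, was at 1.26 and 0.846 CPM in proximal and 55.8 and 68.5 CPM in distal libraries. Nr1i2, a xenobiotic receptor, was at 6.38 and 3.6 CPM and 59.7 and 68.3 CPM, and Creb3l3, a membrane-bound factor of lipid metabolism, at 1.48 and 2.96 CPM and 39.2 and 47.4 CPM. These 3 were called lower, with log2 fold changes of -5.90, -3.69 and -4.26. Smaller but called differences were found for Klf4, a factor of terminal differentiation (-2.21), and for Tcf7l2, the main TCF partner of beta-catenin in this tissue (-2.64). Foxa1 and Gata6 were not called, at 0.36 and 0.64 on the log2 scale.

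**Figure D2:**
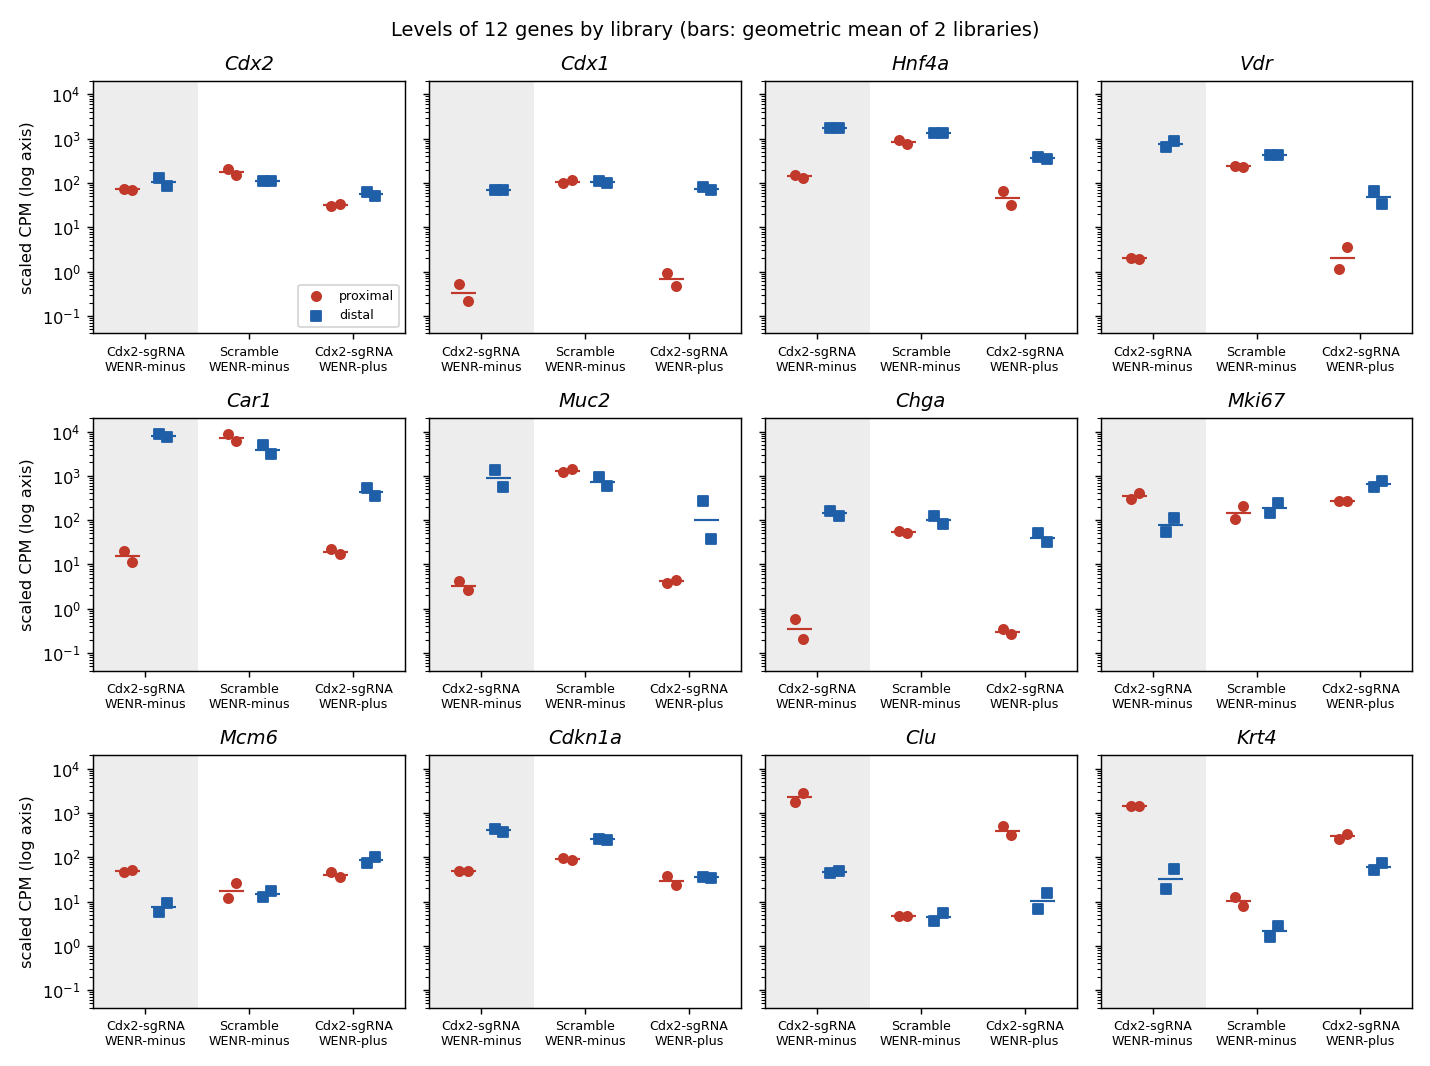
Scaled CPM (log axis) of 12 genes in proximal (red circles) and distal (blue squares) organoids of 3 settings, 1 point per library and a bar at the geometric mean of 2 libraries. In the shaded Cdx2-sgRNA WENR-minus column, Cdx1, Hnf4a, Vdr, Car1, Muc2, Chga and Cdkn1a are lower and Mki67, Mcm6, Clu and Krt4 higher in both proximal libraries than in both distal ones.

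Absorptive genes were lower in proximal organoids almost without exception. Of 30 colonocyte genes tested, 27 were lower and none was higher, with a median of -6.23 (-5.72 with genes at the floor set to their bounds). Carbonic anhydrases hydrate carbon dioxide for electrolyte transport at the colon surface. Car1 was at 19.9 and 11.4 CPM in proximal and 8574 and 7377 CPM in distal libraries (log2 fold change -9.0, SE 0.50, adjusted p = 2.92e-07), and Car4 at 1.34 and 1.0 CPM and 1382 and 1578 CPM (log2 fold change -10.32, SE 0.63, adjusted p = 6.17e-07). The chloride-bicarbonate exchanger gene Slc26a3 read 1.71 and 1.75 CPM against 918 and 1439 CPM. The proton pump gene Atp12a read 4.08 and 2.8 CPM against 4862 and 4319.6 CPM, the water channel gene Aqp8 4.31 and 3.12 CPM against 2606 and 3377 CPM, and the epoxygenase gene Cyp2c55 9.95 and 10.6 CPM against 4463 and 5497 CPM. For each of these genes both proximal libraries lay far under both distal ones, and log2 fold changes ran from -10.39 for Atp12a to -8.92 for Cyp2c55. Brush border genes followed, among them Vil1 (villin, 212 and 181 CPM against 1188 and 1436 CPM), Cdhr5 (4.9 and 2.86 CPM against 1100.4 and 1221 CPM) and the membrane mucin Muc3 (0.965 and 0.952 CPM against 206 and 601 CPM). Alpi, the brush border alkaline phosphatase, read 0.0742 and 0.212 CPM against 187 and 202 CPM. Krt20, a keratin of the crypt top, was an exception: it was at 489 and 1572 CPM in proximal and 1412 and 2206 CPM in distal libraries, the groups overlapped, and the gene was not called (log2 fold change -0.81, adjusted p = 0.224). Without the proximal library of replicate 2, Krt20 was called lower as well (log2 fold change -1.92, adjusted p = 0.0227, edgeR).

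Genes best known from small intestinal enterocytes took part in the difference. Of 29 tested, 27 were lower and none higher in proximal organoids, with a median of -6.58 (-5.70 with bounds). The meprin gene Mep1a read 0.817 and 0.423 CPM in proximal and 372 and 458 CPM in distal libraries, and the peptide transporter gene Slc15a1 0.594 and 1.11 CPM and 343 and 516 CPM. Slc5a1, which encodes the sodium-glucose cotransporter, read 0.148 and 0.476 CPM and 63.7 and 269 CPM. Apoa4, an apolipoprotein gene of lipid absorption, had at most 3 reads in each proximal library and 54.5 and 36.5 CPM in the distal ones, so it was at least 239-fold lower. Ada, adenosine deaminase, read 1.11 and 1.38 CPM and 399 and 415 CPM. In Scramble-sgRNA organoids without Wnt factors the same contrast called 7 of the 29 lower and 1 higher, where 3.2% of all genes were called lower and 2.88% higher.

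Ion and water transport genes went both ways, with 14 lower and 8 higher of 30 tested. The shares over all genes were 16.5% and 18.1%. Lower in proximal organoids were the sodium pump subunit gene Atp1b1 (640.3 and 533 CPM against 3209 and 3587 CPM), the sodium-proton exchanger gene Slc9a2 (31.1 and 26.3 CPM against 466 and 847 CPM) and the mineralocorticoid receptor gene Nr3c2 (33.8 and 32 CPM against 431 and 489 CPM). Slc5a8, a monocarboxylate transporter gene, was at least 925-fold lower. On the other side stood Slc4a4, a sodium-bicarbonate cotransporter gene (412 and 688 CPM against 94.5 and 66 CPM), the potassium channel genes Kcnq1 (117 and 70.8 CPM against 9.9 and 25.9 CPM) and Kcne3 (17 and 77.3 CPM against 1.44 and 1.92 CPM), and the aquaporin genes Aqp3 (122 and 60.1 CPM against 0.592 and 0.669 CPM) and Aqp5 (76.6 and 26.8 CPM against 0.508 and 0.0836 CPM).

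Goblet cell and enteroendocrine genes were low in proximal organoids. Of 22 goblet cell genes tested, 18 were lower and 1 was higher (median -6.27, or -5.25 with bounds). Muc2, the gel-forming mucin, read 4.16 and 2.64 CPM in proximal and 1322 and 573 CPM in distal libraries (log2 fold change -8.14, SE 0.98, adjusted p = 7.05e-05). Clca1 read 23.9 and 10.5 CPM against 6049 and 1976 CPM and Fcgbp 15.9 and 34.5 CPM against 5304 and 2271 CPM, both products of goblet cell mucus. Atoh1, the transcription factor that commits cells to the secretory fate, read 0.223 and 0.212 CPM against 26.5 and 7.53 CPM. Goblet cell genes also differed between the distal clones, with replicate 1 above replicate 2 in each of the 4 just named. Fxyd3, an ion pump regulator, was the member called higher (31.4 and 61.2 CPM against 6.35 and 4.27 CPM).

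Of 23 enteroendocrine genes tested, 20 were lower and none higher (median -7.01, or -4.09 with bounds, since 19 had a group at the floor). Chga, the granule protein chromogranin A, read 0.594 and 0.212 CPM in proximal and 163 and 125 CPM in distal libraries (log2 fold change -8.55, SE 0.43, adjusted p = 1.5e-07). The hormone gene Pyy was at least 308-fold lower, with 47.5 and 70.1 CPM in distal libraries, and Tph1, which makes serotonin, at least 427-fold lower, with 102 and 61 CPM. Neurod1, a transcription factor of this lineage, was at least 34-fold lower. Tuft cell genes gave little to compare, as 11 of 18 listed had at most 3 reads in each of the 4 libraries. Of the 4 tested, 3 were higher and none lower, and 2 were higher without either distal library or the proximal library of replicate 2. Ptgs1, a prostaglandin synthase gene, was at 127 and 64.1 CPM against 0.423 and 0.836 CPM. RNA from a culture does not tell fewer cells of a type from less RNA per cell, and this holds for each lineage above.

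**Figure D3:**
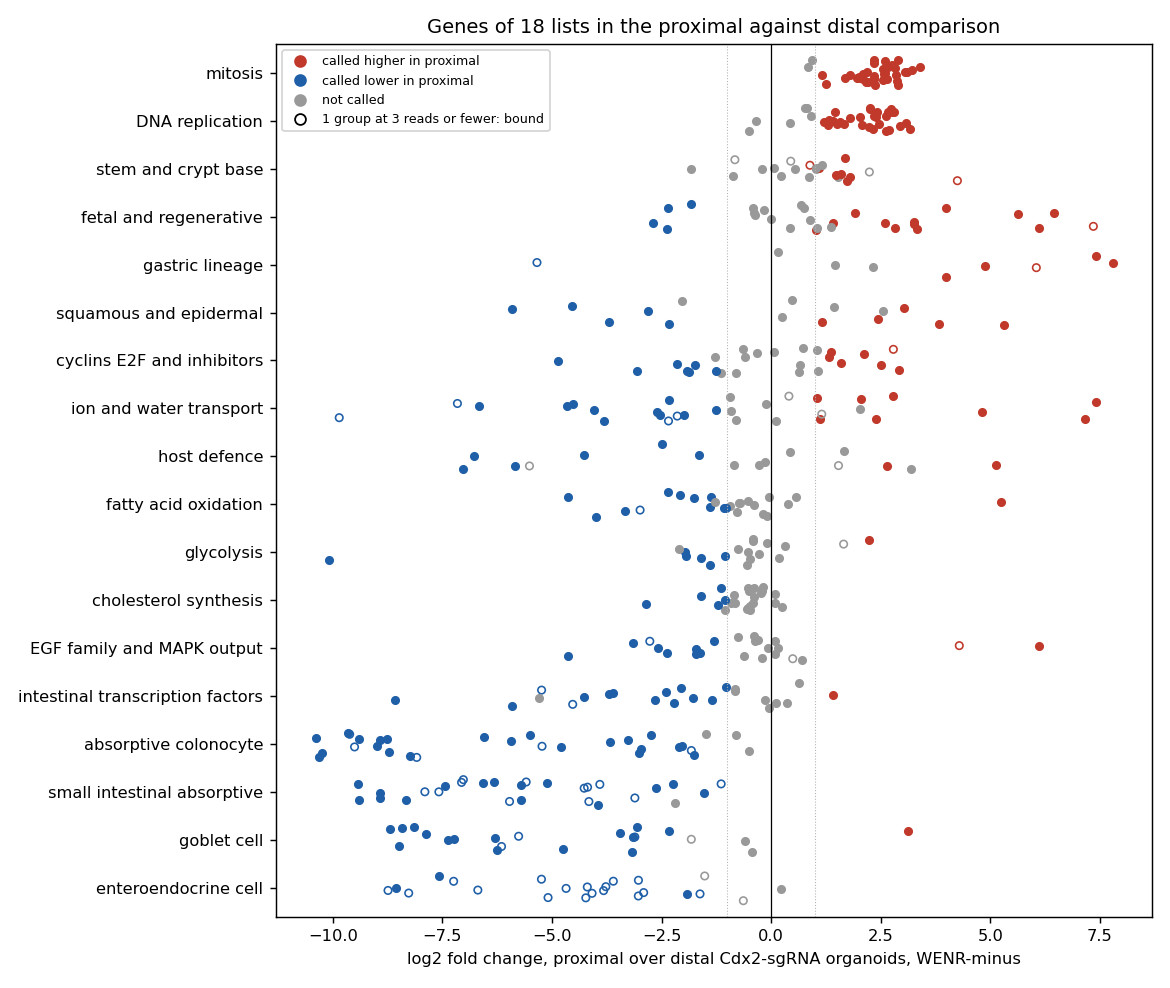
Log2 fold change of proximal over distal Cdx2-sgRNA libraries without Wnt factors for the tested genes of 18 lists, 1 point per gene, with dotted lines at the fold threshold. Open points have 1 group at 3 reads or fewer and are drawn at their bound; genes of mitosis and DNA replication sit right of 0 with few exceptions, and genes of the 4 lists at the bottom sit left of 0 with few exceptions, among them Fxyd3.

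Cell cycle genes showed the opposite sign. Of 35 DNA replication genes tested, 29 were higher and none lower in proximal organoids (median 2.24), and of 37 mitosis genes 35 were higher and none lower (median 2.36). Mcm6, a subunit of the replicative helicase, read 45.4 and 51.6 CPM in proximal and 5.84 and 9.2 CPM in distal libraries (log2 fold change 2.69, SE 0.35, adjusted p = 0.000125). Mki67, the proliferation antigen, read 296 and 406 CPM against 53.6 and 112 CPM (log2 fold change 2.08, SE 0.41, adjusted p = 0.0016). Top2a, the topoisomerase of dividing cells, read 188 and 199 CPM against 28.9 and 47.8 CPM, and Ccnb1, the mitotic cyclin B1, 37.3 and 24.2 CPM against 2.62 and 5.69 CPM. Each of these was higher in both proximal libraries than in either distal library, as were 33 of the 35 replication genes and all 37 mitosis genes, where 39% of all genes tested were higher and 34.4% lower without overlap. Pcna was the main exception, at 81.4 and 80.5 CPM against 111 and 119.7 CPM, and was not called. Its log2 fold change was -0.51, but 0.20 with library totals, so its direction depended on the scaling.

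Regulators of the cycle went both ways. The CDK inhibitor genes Cdkn1a (p21) and Cdkn1c (p57) read 48.3 and 49 CPM and 4.38 and 4.02 CPM in proximal, and 435 and 373 CPM and 133 and 113 CPM in distal libraries, with log2 fold changes of -3.05 and -4.87. Cdkn2c (p18), another CDK inhibitor gene, was called higher at 3.64 and 3.75 CPM against 1.61 and 1.34 CPM. Rb1, the retinoblastoma gene, was lower by a smaller amount (-1.87). Ccnd1, the G1 cyclin D1, read 352 and 197 CPM against 55.6 and 41.1 CPM and its partner kinase gene Cdk4 46.1 and 49.2 CPM against 13.3 and 8.7 CPM, and both were called higher. Over the 26 cyclin, E2F and inhibitor genes, 7 were called in each direction, where 18.1% of all genes were higher and 16.5% lower. With library totals 11 were called higher.

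The cell cycle difference depended on the medium, by the test of the difference between media given below. In WENR-plus medium, Mki67 was at 269.8 and 273 CPM in proximal and 548 and 769 CPM in distal Cdx2-sgRNA organoids, and Mcm6 at 45.7 and 36.1 CPM and 72.2 and 99.7 CPM. For both genes the distal libraries were the higher ones with Wnt factors and the lower ones without, while the proximal levels of Mcm6 in the media overlapped. The region difference in WENR-minus exceeded that in WENR-plus medium for 31 of 35 replication and 35 of 37 mitosis genes, with none called the other way, where 9.86% of all genes were called in this direction. In WENR-plus medium itself no replication or mitosis gene was higher in proximal organoids, and 8 of 35 and 2 of 37 were lower, where 7.4% of all genes were called higher and 9.57% lower. Against Scramble-sgRNA organoids in the same medium, the region difference was larger in Cdx2-sgRNA organoids for 17 replication and 32 mitosis genes, where 5.17% of all genes were called in this direction. The Scramble-sgRNA contrast called none of the 72 genes of both lists, where 2.88% of all genes were called higher and 3.2% lower. Its replicates differed widely. Mitosis genes summed to 626 and 1252 CPM in proximal and 733 and 1135 CPM in distal libraries, and replication genes to 394 and 674 CPM and 454 and 518 CPM. With such a spread, the lack of calls does not show equal levels.

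**Figure D4:**
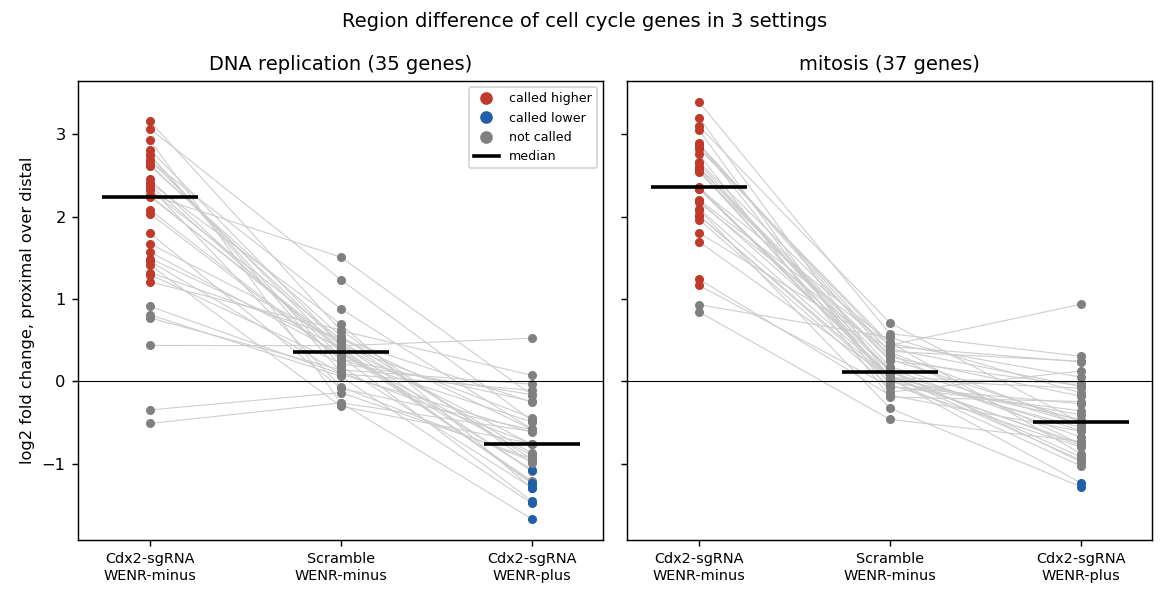
Log2 fold change of proximal over distal organoids for 35 DNA replication and 37 mitosis genes in 3 settings, with 1 point and a grey line per gene and a black bar at the median. Medians are 2.24 and 2.36 in Cdx2-sgRNA organoids without Wnt factors, 0.356 and 0.107 in Scramble-sgRNA organoids in the same medium, and -0.757 and -0.50 in Cdx2-sgRNA organoids in WENR-plus medium.

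Targets of Wnt signalling did not move as one. Of 24 stem and crypt base genes tested, 8 were higher and none lower in proximal organoids (median 1.31, or 1.03 with bounds). Among all genes 18.1% were higher and 16.5% lower. The count of 8 fell to 5 without either distal library and was 13 with library totals. The feedback inhibitors Rnf43 (141 and 90.5 CPM against 51 and 32.6 CPM), Znrf3 (19.4 and 17.9 CPM against 5.92 and 5.69 CPM) and the ErbB inhibitor Lrig1 (44.6 and 47.8 CPM against 17.7 and 12.8 CPM) were called higher. Notum, a secreted Wnt deacylase, was at least 19-fold higher, with 5.94 and 3.65 CPM in proximal libraries. Axin2, the standard target gene of the pathway, was at 31.7 and 19.3 CPM in proximal and 23.6 and 24.7 CPM in distal libraries and was not called (log2 fold change 0.07, adjusted p = 0.869, with a sign that turned without the proximal library of replicate 1). In WENR-plus medium the same clones held 164 and 186 CPM and 112 and 158 CPM of Axin2. Lgr5, the stem cell receptor of R-spondins, was at 3.56 and 4.44 CPM against 1.1 and 1.67 CPM and was not called (log2 fold change 1.53, adjusted p = 0.126). It was called higher with DESeq2 (adjusted p = 0.0443), library totals (0.0303), the replicate block (0.0358), the 4 libraries alone (0.0406) and no filter on low counts (1.51e-06), and its adjusted p was 0.117 to 0.36 under the other alternatives.

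Of 10 genes for Wnt ligands, their secretion and their antagonists tested, 4 were higher and 2 lower in proximal organoids. Among all genes 18.1% were higher and 16.5% lower, so the lower count lies near the background. Wnt7b read 53.6 and 22.6 CPM against 1.02 and 0.753 CPM (log2 fold change 5.42, SE 0.67, adjusted p = 0.000122), and Wnt10a was at least 30-fold higher, with 7.13 and 8.04 CPM in proximal libraries. Wls, which carries Wnt proteins to the cell surface, read 224 and 123 CPM against 67.9 and 43.2 CPM. Wnt3 and the antagonist Wif1 were lower, by at least 4.64-fold and 9.28-fold, and stood at 1.02 and 0.753 CPM and 2.37 and 1.17 CPM in distal libraries. In Scramble-sgRNA organoids without Wnt factors, Wnt7b was at 0.186 and 0.261 CPM in proximal and 0 and 0 CPM in distal libraries.

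Of 23 EGF family genes and outputs of the MAPK pathway tested, 9 were lower and 2 higher in proximal organoids. The shares over all genes were 16.5% lower and 18.1% higher. Ereg, an EGF receptor ligand, read 34.1 and 7.83 CPM in proximal against 0.254 and 0.335 CPM in distal libraries, and Nrg1, a ligand of ERBB3, was at least 19.6-fold higher. The receptor genes Erbb2 (138 and 139.5 CPM against 441 and 476 CPM) and Erbb3 (219 and 222 CPM against 650.1 and 705 CPM) and the feedback genes Dusp6 (52.4 and 65.3 CPM against 368 and 333 CPM), Dusp5 (14.9 and 19.2 CPM against 169.6 and 132 CPM) and Spry4 (1.04 and 1.0 CPM against 17.8 and 33 CPM) were lower.

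Hox genes kept a regional pattern in Cdx2-sgRNA organoids. Of 26 Hox genes and cluster RNAs tested, 10 were higher and 13 lower in proximal organoids, and 18 had a group at the floor. Hoxb13 read 0.965 and 0.793 CPM in proximal and 415 and 404 CPM in distal libraries, and Hoxa13 0.148 and 0.212 CPM and 87.6 and 98.9 CPM. Hottip, a noncoding RNA at the end of the HoxA cluster, was at least 91.5-fold lower, and Hoxa10 and Hoxa9 at least 119-fold and 92.9-fold lower. Middle members of the HoxB cluster lay on the other side, with Hoxb9 at 221 and 208 CPM against 9.22 and 9.53 CPM, Hoxb6 at 59.8 and 69.5 CPM against 0.169 and 0.92 CPM and Hoxb8 at 27.4 and 28.6 CPM against 0.169 and 0.335 CPM. Hoxd8 was at least 58-fold higher.

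Scramble-sgRNA organoids in the same medium showed 9 of the 26 higher and 7 lower in proximal libraries. The shares over all genes in that contrast were 2.88% and 3.2%. There Hoxb13 read 0.496 and 0.73 CPM in proximal and 363 and 340.1 CPM in distal libraries, and Hoxb6 45.1 and 44 CPM and 0.923 and 1.43 CPM. The difference between guides was called for 5 of the 26, 1 upward and 4 downward, where 14.3% of all genes were called, 5.17% upward and 9.08% downward, so the count lies near the background. For Hoxb9 it was upward, as the proximal libraries of the Scramble-sgRNA organoids held 62.1 and 64.5 CPM. The other 4 were HoxA genes: Hoxa2, Hoxa3, Hoxa5 and Hoxa13 were at or near the floor in proximal Cdx2-sgRNA organoids, whereas proximal Scramble-sgRNA libraries held 2.6 and 2.81 CPM of Hoxa3, 0.868 and 1.41 CPM of Hoxa5 and 1.86 and 4.17 CPM of Hoxa13. In distal Cdx2-sgRNA libraries Hoxa3 was at 2.37 and 3.76 CPM and Hoxa5 at 2.62 and 3.01 CPM.

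**Figure D5:**
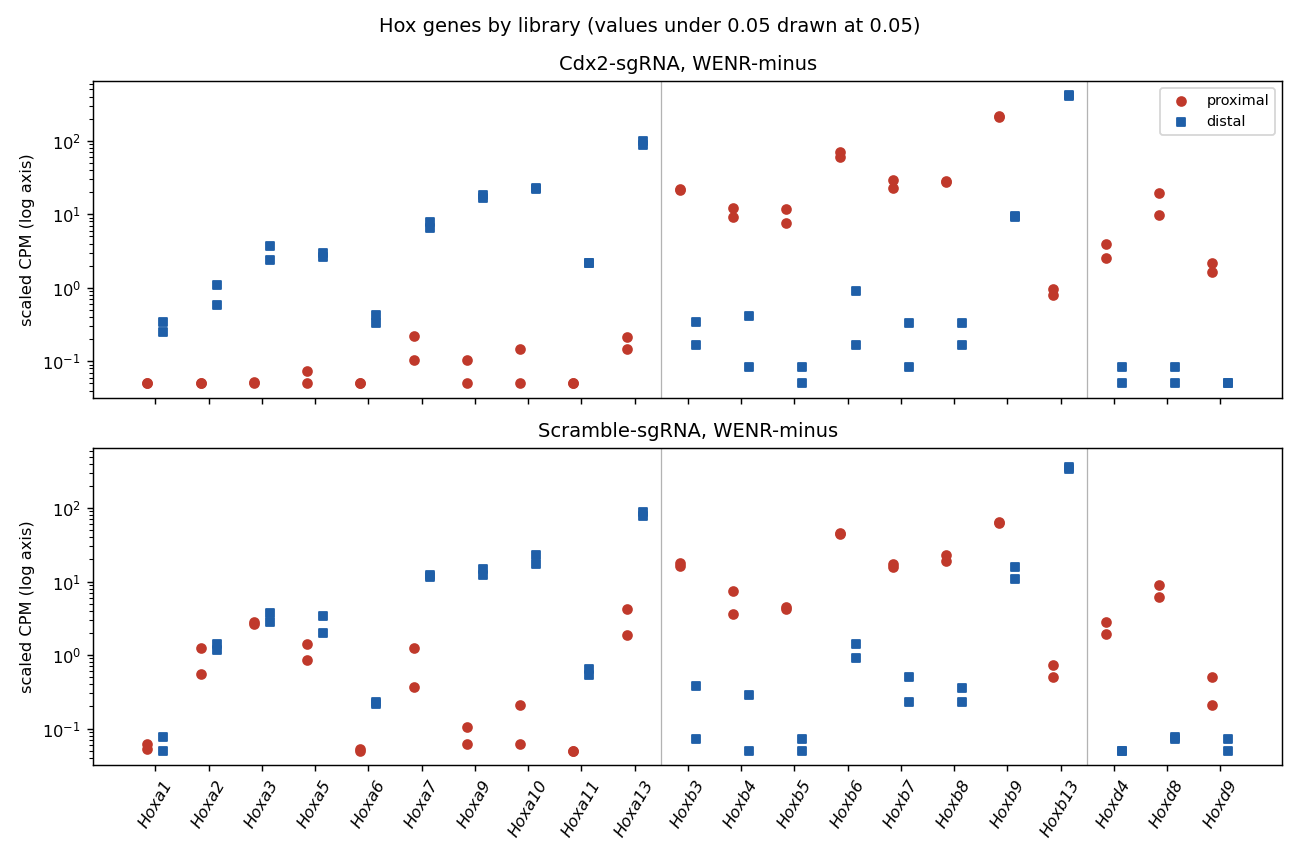
Scaled CPM (log axis, values under 0.05 drawn at 0.05) of 21 Hox genes in proximal (red circles) and distal (blue squares) libraries of Cdx2-sgRNA (top) and Scramble-sgRNA (bottom) organoids in WENR-minus medium, with lines between the HoxA, HoxB and HoxD genes. HoxA genes are low in proximal Cdx2-sgRNA organoids along the whole cluster, and Hoxb3 to Hoxb9 are lower in distal than in proximal organoids under either guide.

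Other regional factors were mostly higher in proximal organoids, with 8 of 15 tested called higher and 1 lower. Osr2, a zinc finger transcription factor, was at least 185-fold higher, with 48.8 and 44.5 CPM in proximal libraries. The T-box gene Tbx3 read 44.9 and 61.9 CPM against 3.3 and 1.0 CPM and the zinc finger gene Zfp503 16.9 and 21.6 CPM against 0.338 and 0.0836 CPM. All 3 divided the regions in Scramble-sgRNA organoids as well, where Osr2 was at 73.2 and 57.3 CPM and 0.0769 and 0.502 CPM. Zfpm2, a cofactor of GATA factors, was at least 104-fold higher in Cdx2-sgRNA organoids, with 42.2 and 10.6 CPM in proximal libraries, and had no reads in proximal Scramble-sgRNA libraries. Meis1, a cofactor of Hox proteins, was at least 13-fold lower in proximal Cdx2-sgRNA organoids.

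Some genes of other epithelia were higher in proximal organoids. Of 10 gastric genes tested, 5 were higher and 1 lower, where 18.1% of all genes were higher and 16.5% lower. Their median log2 fold change was 3.15, and 0.000 without the proximal library of replicate 2. All listed gastric genes summed to 329 and 773 CPM in proximal and 77.9 and 57.1 CPM in distal libraries. Ctse, an aspartic protease of gastric epithelium, read 77.3 and 255 CPM in proximal and 8.04 and 3.35 CPM in distal libraries, and Psca, a surface protein of stomach and bladder, 85.3 and 132 CPM and 8.38 and 5.35 CPM. Onecut2 read 29 and 159.7 CPM and 0.0846 and 0.753 CPM, and Onecut1, a liver and pancreas factor, was at 1.56 and 31.8 CPM in proximal and 0 in distal libraries. Defining genes of the stomach were not part of this. Muc5ac, Gkn1, Pgc, Lipf, Sox2 and Barx1 had no reads in any of the 4 libraries. Onecut1 and Onecut2 differed between the proximal clones, with replicate 2 above replicate 1. The call of Onecut1 was lost without the proximal library of replicate 2 (adjusted p = 0.0982) and without either distal library (0.0660 and 0.0672). In Scramble-sgRNA organoids Ctse was at 0.062 and 0.261 CPM in proximal and 1.08 and 1.36 CPM in distal libraries, and the difference between guides was called for 5 of the 10 upward and 1 downward, where 5.17% and 9.08% of all genes were.

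Of 15 squamous genes tested, 5 were called in each direction, where 18.1% of all genes were called higher and 16.5% lower. The number called higher was 1 without the distal library of replicate 1, 2 without that of replicate 2 and 3 without either proximal library, and the number called lower was 3 without the distal library of replicate 1. Krt4, a keratin of stratified epithelium, was among the 6 most abundant RNAs called higher in proximal organoids. It read 1468 and 1465 CPM in proximal and 19.5 and 54.3 CPM in distal libraries (log2 fold change 5.31, SE 0.70, adjusted p = 0.00012). Sprr2a3, a cornified envelope protein gene that gut epithelium also expresses, went the other way at 30.5 and 32.2 CPM against 813 and 647 CPM. Its near-identical neighbours can share reads, so its own level is uncertain.

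Of 28 fetal and regenerative genes tested, 13 were higher, 4 lower and 11 not called in proximal organoids. The shares over all genes were 18.1% higher and 16.5% lower. Log2 fold changes of the list had a median of 1.04 and reached down to -2.69. Cdx2-sgRNA organoids with Wnt factors gave a similar list result, with 12 upward calls, 2 downward calls and a median of 1.04. All members named next come from the higher side. Clu, a secreted chaperone of regenerating epithelium, read 1805 and 2862 CPM in proximal and 44.7 and 48.9 CPM in distal libraries (log2 fold change 5.64, SE 0.47, adjusted p = 5.46e-06). Krt7, a keratin of simple epithelia, read 1324 and 1668 CPM against 377 and 420.4 CPM and Msln, mesothelin, 606 and 517 CPM against 247 and 175 CPM. Spp1, osteopontin, was at least 163-fold higher, with 30.9 and 51.4 CPM in proximal libraries. Clu was at 4.77 and 4.69 CPM in proximal and 3.62 and 5.38 CPM in distal Scramble-sgRNA libraries, so both regions of Cdx2-sgRNA organoids lay above their controls.

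Defence genes of the mucosa were lower for 6 and higher for 2 of 20 tested, where 34.6% of all genes were called, 16.5% lower and 18.1% higher. The number called higher was 4 without the proximal library of replicate 2 and 5 with library totals. Lypd8, which keeps bacteria from the epithelium, was the most abundant nuclear-encoded RNA after Actb among those lower, at 277 and 115 CPM in proximal and 13030.0 and 9569 CPM in distal libraries. Pigr, the transporter of IgA, read 233 and 576 CPM against 2143 and 2370.3 CPM. The chemokine gene Cxcl5 was higher, at 339 and 142 CPM against 9.05 and 4.68 CPM.

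Several metabolic genes were lower in proximal organoids. Of 24 fatty acid oxidation genes tested, 11 were lower and 1 higher, among them the carnitine carrier gene Slc25a20 (14 and 15.8 CPM against 242 and 231 CPM) and the mitochondrial coactivator gene Ppargc1a (7.42 and 3.33 CPM against 127 and 138 CPM). With library totals 6 of them were lower and 3 higher. Of 19 glycolysis genes 6 were lower and 1 higher (3 and 2 with library totals), where 16.5% of all genes were lower and 18.1% higher. Of 24 cholesterol synthesis genes 5 were lower, near the share over all genes, among them Insig1, a sterol sensor (279.9 and 209.5 CPM against 2031 and 1514 CPM), but 3 without the distal library of replicate 1 and 1 with library totals. Interferon and antigen presentation genes were lower for 7 and higher for 2 of 19, including the class I gene H2-K1 (112 and 119.6 CPM against 362 and 412 CPM), and 1 was higher when any single library of the 4 was left out. For p53 target genes the count was 4 lower and 3 higher of 18, near the share over all genes, and 2 were lower without the proximal library of replicate 2.

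The genes at the ends of the fitted fold changes, with a mean of 5 CPM or more on the higher side, had little RNA in 1 region. Where a group had at most 3 reads per library the fitted value depends on the prior count, so their order is not one of size, and genes named above such as Osr2 had higher bounds than some of them. On the lower side these were Clca4a, Cyp2d9, Pakap, Ppy, Prss30, Maob, Pla2g4f, Trpv6, Abcc2 and Eif4ebp3. Trpv6, the epithelial calcium channel, had the highest level of them, with 857 and 364 CPM in distal and 0.445 and 0.0529 CPM in proximal libraries (log2 fold change -11.39, SE 1.06, adjusted p = 1.12e-05). Clca4a, a chloride channel regulator, was at least 726-fold lower and had no reads in proximal libraries against 153 and 124 CPM. Maob, monoamine oxidase B, rested on 1 distal library, with 45.7 and 0.167 CPM, and was not called without the distal library of replicate 1 (adjusted p = 0.552) or without either proximal library (0.128 and 0.154).

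On the higher side the rule gave Onecut1, Padi1, Ltf, Ush1g, St8sia6, Tgfb2, Rasl11b, Spp1, Obsl1 and Fmnl1. St8sia6, a sialyltransferase gene, differed widely between the proximal clones at 1002 and 16.7 CPM, against 1.02 and 0 CPM in distal libraries, and was not called without the proximal library of replicate 1 (adjusted p = 0.0953) or either distal one (0.0520 and 0.0741). Ltf, lactoferrin, likewise rested on replicate 2 at 0.668 and 17.2 CPM (adjusted p = 0.0559 without that library). Tgfb2, a TGF-beta ligand gene, was even between the clones at 8.46 and 5.82 CPM and at least 28.3-fold higher. The most abundant RNAs called higher were Clu, Gsto1, Hsp90ab1, Krt7, Xist and Krt4, with Gsto1, an omega-class glutathione transferase, at 2089 and 1729.7 CPM against 424 and 445 CPM. The most abundant called lower were mt-Co1, Actb, Lypd8, Ahnak, Ceacam1 and Car1, with Ceacam1, an epithelial adhesion protein, at 729 and 1128 CPM against 7592 and 6883 CPM. Ahnak, a large scaffold protein gene near the fold threshold (-1.11), was not called without either proximal library (adjusted p = 0.108 and 0.0596) or the distal library of replicate 2 (0.13).

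The region difference was set against that of Scramble-sgRNA organoids in the same medium, which share no libraries with it. In Scramble-sgRNA organoids 929 genes (6.08%) were called between the regions, 440 higher (2.88%) and 489 lower (3.2%) in proximal organoids, and 342 to 786 were called without 1 of its libraries. The count was 342 without the proximal library of replicate 2, 438 and 525 without the distal libraries of replicate 2 and replicate 1, and 1510 (1158 higher) with library totals. Of the 929 genes 628 were called in the same direction in Cdx2-sgRNA organoids, 67.6% of the Scramble-sgRNA calls and 11.9% of the Cdx2-sgRNA calls, and 43 in the opposite direction. The test of the difference itself called 2180 genes (14.3%), 791 with a higher and 1389 with a lower region difference in Cdx2-sgRNA organoids. It called 1439 without the proximal Scramble-sgRNA library of replicate 1 and 1220 without the distal one of replicate 2, and with library totals 1616 were upward and 971 downward. By list, the downward calls took 26 of 30 colonocyte, 16 of 22 goblet cell, 14 of 23 enteroendocrine and 10 of 23 intestinal transcription factor genes, where 9.08% of all genes were called in this direction.

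In WENR-plus medium, which again shares no libraries with the main comparison but holds the same clones, 2595 genes (17%) were called between proximal and distal Cdx2-sgRNA organoids, 1132 higher (7.4%) and 1463 lower (9.57%), and 1586 without the distal library of replicate 1. Of the 2595 genes 1685 were called in the same direction in WENR-minus medium, 64.9% of the WENR-plus and 31.8% of the WENR-minus calls, and 81 in the opposite direction. The model had no clone term, so libraries of the same clone in both media were treated as independent. The test of the difference between media called 2684 genes (17.6%), 1507 higher and 1177 lower in WENR-minus medium, or 3616 and 483 with library totals. Among the differentiated lineages this divided the genes. Of 30 colonocyte genes, 21 had a region difference that was lower in WENR-minus than in WENR-plus medium, where 7.7% of all genes were called in this direction, but only 1 of 22 goblet cell and 1 of 23 enteroendocrine genes. Car4 shows the first kind, with 1.51 and 2.06 CPM in proximal and 4.13 and 1.96 CPM in distal libraries in WENR-plus medium, where both regions were low. Chga shows the second, with 0.348 and 0.264 CPM and 50 and 31.6 CPM there, and Atoh1, with 0.116 and 0.159 CPM and 48.8 and 16.8 CPM.

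Promoters were searched for the letters that HNF4 and E2F factors are known to bind, since Hnf4a and the replication genes stood out above. Sequences came from RefSeq promoters of GRCm38.p6, 250 bases before to 50 after each start site, and 10549 of the tested genes had 1. The HNF4 letters CAAAGTCCA occurred on either strand in promoters of 1.18% of the 1862 genes lower in proximal organoids, 0.316% of the 1899 higher genes, 0.471% of those not called and 0.555% of all 27025 genes with a promoter. The lower genes with a match numbered 22. The matches in Trpv6, Alpi and Wnt3, described above, and in Treh, the brush border trehalase, are shown with 10 bases on either side, the match in capitals, read along the strand of the match.
Trpv6 (chr6:41636536-41636564): ctgggtatccCAAAGTCCAggggccagct
Alpi (chr1:87101607-87101635): tagccagggaCAAAGTCCAtctctgattt
Treh (chr9:44673152-44673180): ccaggtcagcCAAAGTCCAggctatgagg
Wnt3 (chr11:103774179-103774207): atagttggaaCAAAGTCCActtgaggttg

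The E2F letters TTTCGCGC and TTTGGCGC, which can overlap on opposite strands, occurred on either strand in 12 of the 28 replication genes with a promoter, in 1.75% of the tested genes with a promoter and in 0.929% of all genes with a promoter. TTTCGCGC alone was found for 1.42% of higher, 0.161% of lower and 0.678% of not called genes, and TTTGGCGC for 1.74%, 0.806% and 1.02%. The replication genes shown, in the same form, are those whose levels differed most among the matches.
Mcm6 (chr1:128359794-128359821): cgcacgcactTTTCGCGCcaaaagcata
Clspn (chr4:126556991-126557018): aagttcgagcTTTCGCGCccagacgcgg
Pola1 (chrX:93632276-93632303): cgggagtgcaTTTGGCGCcctgtgatga
Dtl (chr1:191575535-191575562): gtgacgtcagTTTGGCGCggagtttggc
Treh was at least 134-fold lower in proximal organoids. Clspn (claspin, a checkpoint adaptor) read 8.91 and 7.83 CPM against 0.762 and 1.42 CPM, Pola1 (a DNA polymerase alpha subunit) 24.6 and 24.4 CPM against 3.05 and 4.27 CPM, and Dtl (a ubiquitin ligase adaptor of S phase) 13.4 and 14.5 CPM against 1.35 and 3.01 CPM. The letters TTTATGG, which CDX factors are known to bind, were present in promoters of 2.9% of lower, 1.74% of higher and 1.99% of not called genes, 2.1% of all tested genes and 3.21% of all genes with a promoter. A match is a description of these bases and no binding was measured here.

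The labelled tissue was checked against markers of cell types. Epithelial markers summed to 14479 and 13843 CPM in proximal and 24427 and 23218 CPM in distal libraries, with Epcam at 445 and 508 CPM against 2852 and 2950.0 CPM (log2 fold change -2.61) and Krt19 at 6826 and 6178 CPM against 5174 and 5151 CPM. Stromal markers summed to 1.32 to 5.52 CPM, with Col3a1, Dcn, Lum and Twist2 at 0, and endothelial and neural markers to at most 7.19 CPM. Immune markers summed to 93.2 and 93.3 CPM in proximal and 35.3 and 20.5 CPM in distal libraries. Most of this was Cd14, which epithelium also expresses, at 66.7 and 77.2 CPM against 29 and 17 CPM, while Cd3e, Adgre1 and Tyrobp were at 0. Of the 4 immune markers tested, 3 were called higher and 1 lower in proximal organoids, so Cd14 was not the only one higher. The source of this RNA was not tested.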

How the data were processed

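RNA of colon organoids was sequenced as stranded paired-end libraries in the study. Per the labels and the methods of the study, the authors quantified transcripts with Salmon 1.1.0 on mouse GENCODE transcripts (vM23, mm10). The deposited tables hold, per transcript and library, estimated counts (NumReads), TPM and an effective length, none of them pooled over libraries. Estimated counts were summed per gene and rounded to whole numbers. Of 140748 transcripts 139864 matched the annotation used here (vM21, GRCm38), giving 54123 genes, and the unmatched ones held 0.257 to 0.509% of counts. TPM entered only the length-scaled alternative.

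One model was fitted to all 16 libraries, with 1 coefficient for each of 8 groups and 8 residual degrees of freedom, after filterByExpr and TMM scaling (edgeR 4.0.16 quasi-likelihood test, R 4.3.3, prior count 0.125). Adjusted p-values are Benjamini-Hochberg over 15289 genes. The adjusted p threshold was 0.05 and the absolute log2 fold change threshold 1. Simulated data with known changes were used to test the fit. In the simulated main comparison 20% of 2-fold, 68% of 4-fold and 82% of 8-fold changes were called. Only 50 genes per fold were changed of 14664 fitted, far fewer than the 5291 called in the data. The adjusted p cut was thus stricter than in the data, and a 2-fold change lies at the fold threshold. These shares are not detection rates for the real comparison.

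The groups and the 31 gene lists were chosen with earlier results of these data known. Named genes were Cdx2 and Cdx1, list members with the largest called change at 5 CPM or more in the higher group and defining members, the 10 highest and 10 lowest fold changes and the 6 most abundant genes in each direction among calls over 5 CPM, and the extremes of the differences between guides (6 each way) and between media (4 each way). Some genes covered by this rule are not reported here. Alternatives were RLE size factors, library totals, other filters, DESeq2 1.42.0, length-scaled counts, no mitochondrial transcripts, a replicate block, only the libraries compared, no fold threshold and each library left out. Lists of marker genes of stromal, immune, endothelial and neural cells served as checks of the tissue.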

Additional observations from a re-analysis of the deposited data

Results flagged for a closer look

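The region difference in WENR-minus medium depended on the guide for 2180 genes and, in Cdx2-sgRNA organoids, on the medium for 2684 genes, by the test of the difference itself (edgeR, adjusted p under 0.05 and over 2-fold). The genes at the ends of both lists are given here in scaled CPM for replicate 1 and replicate 2. Nearly all have a group with at most 3 reads per library, so their adjusted p is printed and no fold change.

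Against Scramble-sgRNA organoids, Cdx2 had a lower region difference by 1.22 on the log2 scale (fitted value -1.22, higher in proximal Scramble-sgRNA libraries). Genes with a higher region difference in Cdx2-sgRNA organoids included Spp1 (adjusted p = 0.00155), which was at 30.9 and 51.4 CPM in proximal Cdx2-sgRNA and 0 and 0.0521 CPM in proximal Scramble-sgRNA libraries. Sftpd, a surfactant collectin gene, was at 27.8 and 18.2 CPM and 0 and 0 CPM in the same libraries (adjusted p = 0.00417). Fam167a (6.24 and 21.9 CPM, adjusted p = 0.00148), Fmnl1 (6.46 and 5.24 CPM, 0.0338) and Fam81a (4.08 and 7.35 CPM, 0.0493) had no reads in proximal Scramble-sgRNA libraries. Aqp4 was set apart by distal Scramble-sgRNA libraries, at 84.3 and 39.9 CPM there and 1.69 and 0 CPM in distal Cdx2-sgRNA libraries (adjusted p = 0.0145).

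Genes with a lower region difference in Cdx2-sgRNA organoids included Prss30, a serine protease gene without reads in proximal Cdx2-sgRNA libraries and at 60.9 and 21.6 CPM in proximal Scramble-sgRNA libraries (adjusted p = 0.00160). Clca4a stood at 0 and at 21.6 and 9.07 CPM in these groups (adjusted p = 0.00196), Nts, the neurotensin gene, at 0 and at 20.5 and 3.49 CPM (0.00709), and Gsdmc3, a gasdermin gene, at 0 and at 8.92 and 2.97 CPM (0.0222). Gsdmc3 differed between distal Cdx2-sgRNA clones (15.5 and 1.25 CPM), and its main call was lost without the distal library of replicate 1 (adjusted p = 0.0797) or either proximal library (0.05 and 0.0663). Lyz1 (lysozyme) varied between replicates in distal Cdx2-sgRNA (16.3 and 1.09 CPM) and proximal Scramble-sgRNA libraries (0.248 and 13 CPM, adjusted p = 0.0489). Cyp2c66 was at 5.27 and 5.21 CPM in proximal Scramble-sgRNA libraries and at most 0.167 CPM in the 4 Cdx2-sgRNA libraries (adjusted p = 0.0138).

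Between media, Muc1, a membrane mucin gene, had a region difference higher by 5.97 on the log2 scale in WENR-minus medium. It was at 15.1 and 138 CPM in proximal and 26.4 and 4.27 CPM in distal libraries without Wnt factors, and at 0.754 and 1.48 CPM and 15.6 and 12.7 CPM with them. Rasl11b was at 6.98 and 5.71 CPM in proximal libraries without and 3.25 and 1.74 CPM with Wnt factors, and in distal libraries without reads and at 0.573 and 2.54 CPM in these media (adjusted p = 0.0150). Lor (loricrin, adjusted p = 0.00534) was at 10.1 and 3.44 CPM in distal libraries with and 0.338 and 0.251 CPM without Wnt factors. Chodl (adjusted p = 0.00458) was at 6.99 and 4.55 CPM and 2.79 and 1.84 CPM in the same libraries. Both had no reads in proximal libraries with Wnt factors and were at 0.223 and 0.582 CPM and 0.223 and 0.212 CPM in those without. Cacna1e (adjusted p = 0.00570), Fam161a (0.00314), Ggt1 (0.0159) and Prss30 (0.0145) had no reads in proximal libraries without Wnt factors, where distal libraries held 5.42 and 9.12 CPM, 6.01 and 9.03 CPM, 9.14 and 6.36 CPM and 17.8 and 39.6 CPM, and were under 1 CPM in WENR-plus medium.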

How the results depend on the processing

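Precision was limited by 2 libraries per group. Calls in the main comparison numbered 4284 to 5726 under the alternatives with TMM or RLE scaling or DESeq2 and the same thresholds, and none of the 5291 calls turned to a call in the other direction. Of the 144 called genes among those named in the text, all kept their call with RLE size factors, DESeq2 and no filter on low counts, and 9 lost it under some alternative. The alternative with library totals was added after seeing the data and moved the balance of directions, as given above.

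The labels do not state that a replicate number pairs the regions. Deviations from group means correlated weakly between regions of the same number (r = 0.114 in the main comparison and 0.0198 to 0.131 over the 4 pairs of groups, or 0.03 to 0.176 over genes with a mean over 5 CPM) and more between media of the same region and number in Cdx2-sgRNA organoids (0.64 and 0.518), across genes, which are not independent replicates. With the number as replicate block, 5336 genes were called in the main comparison, 2436 for the difference between guides, 2855 for that between media, 1070 in Scramble-sgRNA organoids and 2728 in WENR-plus medium. The block ended no call of a named gene, and Lgr5 and Lyz1 were called with it.

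Leaving out 1 library gave 4284 to 5111 calls in the main comparison, 1220 to 2178 for the difference between guides, 1884 to 2548 for that between media, 342 to 786 in Scramble-sgRNA organoids and 1586 to 2653 in WENR-plus medium. Without a filter on low counts the Scramble-sgRNA contrast gave 1619 calls, and 3185 were found for the difference between guides. Without the fold threshold the Scramble-sgRNA contrast gave 1521 calls and the WENR-plus contrast 4480. With library totals, 4099 genes were called for the difference between media and 1510 in the Scramble-sgRNA contrast. The sign of the region difference turned for 5 of the genes named in the text, none of them called. Cdx2 was at 0.15 and Pcna at 0.20 with library totals, and Axin2 at -0.0502 with length-scaled counts. Leaving out 1 library gave -0.32 to 0.36 for Axin2, -0.42 to 0.97 for Lor and -0.0487 to 4.16 for Muc1. The cause was not tested.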

Other observations

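The distal Scramble-sgRNA cultures differed from each other on chromosome 19, and the proximal Cdx2-sgRNA clones on chromosomes 4 and 13. In replicate 2 against replicate 1, genes of chromosome 19 had a median log2 difference of 0.493 without and 0.396 with Wnt factors in distal Scramble-sgRNA organoids. In proximal Cdx2-sgRNA organoids 82.9% of 514 genes of chromosome 4 and 78.9% of 323 genes of chromosome 13 were lower in replicate 2 without Wnt factors, and 85.8% and 86.4% with them. Copy number was not measured.

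Sox17, an endoderm transcription factor, differed between the proximal Cdx2-sgRNA libraries, at 0.445 and 34.6 CPM in proximal and 0 and 0.167 CPM in distal libraries. Its call was lost without the proximal library of replicate 2 (adjusted p = 0.587, edgeR) and without either distal library (0.164 and 0.13). This gene was chosen after its values were seen.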
